A study of Saccharomyces cerevisiae with 18 samples.

Results

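Purified complexes carry some RNA that sticks to the matrix or to the extract rather than to the bait, and background purifications measure it. The 6 background libraries of a yeast nuclear pore study were set here against its 3 libraries of total extract (input), by raw counts over all genes. The 9 libraries were chosen by their labels alone, out of 18 in the series, and the PrA control (IgG matrix) and the GFP control (GFP nanobody matrix) weighed 0.5 each. The study asked which transcripts come down with yeast nuclear pore complexes (NPCs). Its other 9 libraries are purified pores, 3 each of basket-containing (IgG), basket-less (GFP nanobody) and all NPCs (GFP nanobody). They serve here to place a level beside the background, and they enter the shared fit.

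All groups are Saccharomyces cerevisiae W303 from asynchronous log-phase cultures in YPD, harvested and ground in liquid nitrogen. The PrA control (3 libraries) went through the IgG purification, the GFP control (3 libraries) through the GFP nanobody purification, and the input (3 libraries) was extracted with Trizol from the total extract with no purification. All RNA was then cleaned on Direct-zol columns and selected for poly(A) tails with the NEBNext module. Neither what the control strains express, nor any genotype beyond W303, nor the strain and culture that gave the input is given in the labels. Effects of the purification and of the strain or culture of origin therefore cannot be told apart. Nor do the labels say whether replicates were separate cultures, so the spread behind each p-value is that between these libraries and may be technical.

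IgG is an antibody that binds protein A (PrA), and a GFP nanobody is a single-domain antibody fragment that binds green fluorescent protein; both are fixed to beads for affinity purification. The mRNAs of a cell differ in the proteins that cover them, in ribosome load and in how they cling to surfaces, so a bead without its bait need not recover them in proportion to the extract. Poly(A) RNA sequencing counts the share that each transcript takes of its own library, so a lower share can go with a larger recovered amount.

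Library totals ran from 12135737 to 16620246 counts in the background libraries and from 11171677 to 13733038 in input. At a common depth of 11171677 counts, 6651 to 6683 of 7127 features would have a count in a background library and 6613 to 6624 in an input library. The first principal component of log2 level held 85.1% of the variance and separated the 6 background libraries from the 3 input libraries; the second, with 8.77%, separated the PrA control from the GFP control. Replicate 3 of the PrA control lay between them on it. Its chi-square per degree of freedom against its own replicates, about 1 under counting error alone, was 18.7 and 20.4, where the other replicate pairs of these 3 groups gave 2.84 to 9.54. Levels below are counts scaled by TMM factors to a common library size (CPM), which compare 1 gene between libraries and not genes with each other.

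Most genes differed between the background purifications and the total extract. Of 6429 genes tested, 2494 (38.8%) were higher and 2773 (43.1%) lower in background than in input (edgeR quasi-likelihood test, Benjamini-Hochberg adjusted p below 0.05, n = 6 against 3). More than 2-fold differences were fewer, 524 genes (8.15%) higher and 536 (8.34%) lower. In 2090 genes (32.5%) all 6 background libraries lay above all 3 input libraries, and in 2369 (36.8%) all 6 lay below. Without replicate 3 of the PrA control 2522 were higher and 2803 lower. Taken alone, the PrA control was higher in 2409 (37.5%) and lower in 2650 (41.2%), and the GFP control was higher in 2391 (37.2%) and lower in 2729 (42.4%). The median log2 fold change of all genes was -0.04.

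**Figure D1:**
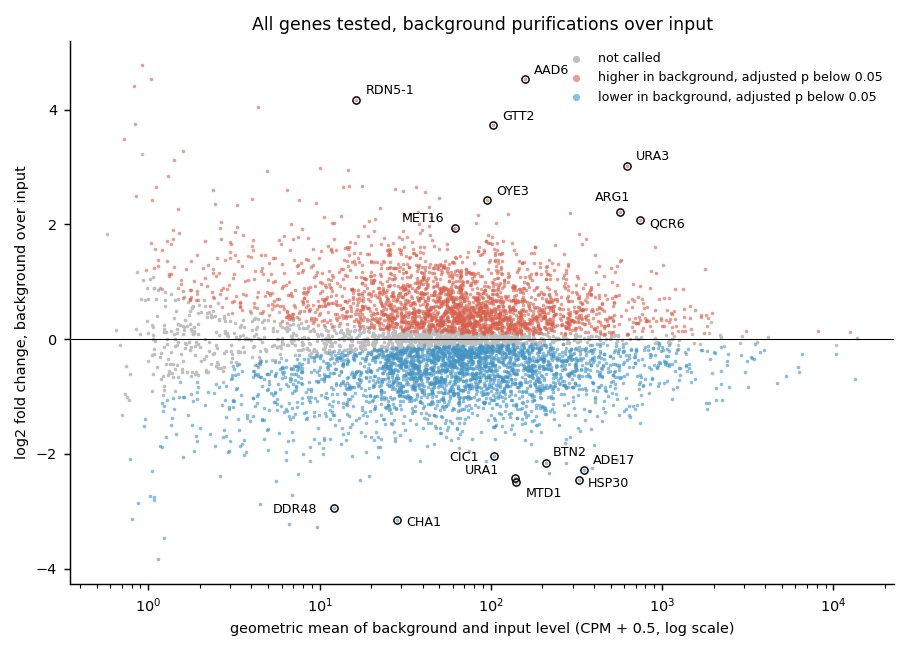
Each point is 1 of the 6429 genes tested; the horizontal axis is the geometric mean of its background and input levels (CPM + 0.5, log scale) and the vertical axis its log2 fold change of background over input, with called genes in red (higher) and blue (lower). The labelled genes lie at the edges, from AAD6 at 4.54 to CHA1 at -3.16, while most called genes lie within 2-fold of the input.

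Among the genes that reached 20 CPM in background with no overlap between groups, the largest rise was that of a redox gene. AAD6, which encodes a putative aryl-alcohol dehydrogenase and is annotated as a pseudogene (YFL056C, chrVI:14305-15431 in R64, minus strand), was at 676, 646 and 765 CPM in the PrA control and 789, 844 and 803 CPM in the GFP control, against 30.7, 32.0 and 34.4 CPM in input. All 6 background libraries were far above all 3 input libraries, a log2 fold change of 4.54 ± 0.06 (SE) or 23.2-fold (Benjamini-Hochberg adjusted p = 3.53e-26, edgeR quasi-likelihood). The 9 pore libraries stood at 22.8 to 39.3 CPM, around the input. GTT2, a glutathione S-transferase (YLL060C, chrXII:21138-21839, minus strand), was at 325, 319 and 375 CPM in the PrA control and 407, 410.0 and 407 CPM in the GFP control, against 28.6, 24.9 and 30.2 CPM in input (3.73 ± 0.06). OYE3, an NADPH oxidoreductase of the old yellow enzyme family (YPL171C, chrXVI:226169-227371, minus strand), was at 216, 222 and 226 CPM in the PrA control and 213, 216 and 221 CPM in the GFP control, against 43.5, 39.9 and 38.9 CPM in input (2.42 ± 0.05). Neither gene's groups overlapped, and the pores lay at 25.8 to 35.9 CPM for GTT2, around its input, and at 11.0 to 22.9 CPM for OYE3, below its input.

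AAD6, GTT2 and OYE3 are listed among the targets of Yap1, the transcription factor that answers oxidants and electrophiles in yeast. The windows from 350 to 51 bases before their start codons are shown 5′ to 3′ on the gene's strand (RefSeq, R64), because all 3 hold the Yap1 letters TTACTAA on one strand or the other, here in capitals; AAD6 spans chrVI:15482-15781, GTT2 chrXII:21890-22189 and OYE3 chrXVI:227422-227721, all on the minus strand.
AAD6: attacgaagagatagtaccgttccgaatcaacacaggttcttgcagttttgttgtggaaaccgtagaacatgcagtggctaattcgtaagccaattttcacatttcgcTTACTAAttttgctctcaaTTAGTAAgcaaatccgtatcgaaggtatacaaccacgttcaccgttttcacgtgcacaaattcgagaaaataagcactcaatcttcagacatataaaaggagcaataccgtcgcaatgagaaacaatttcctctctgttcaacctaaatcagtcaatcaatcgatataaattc
GTT2: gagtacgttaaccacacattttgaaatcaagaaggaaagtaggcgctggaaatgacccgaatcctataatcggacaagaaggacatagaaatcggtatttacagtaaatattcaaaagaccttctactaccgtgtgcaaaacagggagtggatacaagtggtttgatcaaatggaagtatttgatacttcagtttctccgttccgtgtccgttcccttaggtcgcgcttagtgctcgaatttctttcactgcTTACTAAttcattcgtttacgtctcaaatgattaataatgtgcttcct
OYE3: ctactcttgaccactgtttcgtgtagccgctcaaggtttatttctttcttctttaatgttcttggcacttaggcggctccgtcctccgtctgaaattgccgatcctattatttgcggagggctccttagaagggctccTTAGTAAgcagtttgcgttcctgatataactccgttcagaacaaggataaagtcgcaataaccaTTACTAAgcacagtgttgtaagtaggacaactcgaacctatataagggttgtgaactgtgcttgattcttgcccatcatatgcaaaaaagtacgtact
The letters were found in the windows of 14 of 29 listed Yap1 genes (48.3%), against 437 of all 6000 windows (7.28%). They were absent from the windows of AAD4, GRE2, ATR1, FLR1, AAD3, AAD10 and AAD14, which rose too. Across all genes tested with a window, 41.9% of those with the letters were higher in background and 38.1% of those without. A match is a description, not a site or a cause.

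Of the 29 Yap1 and oxidative response genes, 23 rose and 2 fell, with a median log2 fold change of 0.65, where 38.8% of all genes tested rose and 43.1% fell. All 6 background libraries lay above all 3 input libraries in 23 of the 29 genes (32.5% of all genes) and below them in 2 (36.8% of all genes). Besides AAD6, GTT2 and OYE3, AAD4 (2.56 ± 0.08), the methylglyoxal reductase gene GRE2 (2.02 ± 0.06) and the drug transporter genes ATR1 (1.55 ± 0.06) and FLR1 (1.08 ± 0.04) rose. So did ZWF1 (1.38 ± 0.04), the entry enzyme of the pentose phosphate pathway, GSH1 (1.05 ± 0.04), the rate-limiting enzyme of glutathione synthesis, and TRR1 (0.69 ± 0.03), thioredoxin reductase. SOD1, copper-zinc superoxide dismutase, rose by 0.87 ± 0.09. The mitochondrial cytochrome c peroxidase gene CCP1 (-0.28 ± 0.05) and GCY1 (-0.20 ± 0.04) fell. GRE2 was at 232, 238 and 203 CPM in the PrA control and 199.5, 202 and 212 CPM in the GFP control, against 53.0, 57.7 and 48.3 CPM in input. Against the pores, 23 of the 29 were higher in background (46.1% of all genes tested were), 3 lower (45.6%), with a median of 1.08.

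All of the aryl-alcohol dehydrogenase family but 1 rose: 6 of 7 higher (38.8% of all genes were), 1 lower, median 1.09. Members such as AAD6 and AAD4 are also counted among the Yap1 genes above, so the counts of these lists overlap. AAD3 (1.57 ± 0.07), AAD15 (1.09 ± 0.23), AAD10 (0.90 ± 0.05) and AAD14 (0.65 ± 0.08) rose less than AAD6 and AAD4, and YPL088W, a putative member, fell by 0.24. The members share sequence. AAD6 and AAD4 were 89.7% identical over 987 aligned bases, with a longest identical run of 123 bases, and AAD3 and AAD15 were 97.7% identical over 432. How reads that map to several places were counted is not given in the sources used here, so the split between members is uncertain.

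Several genes that are commonly used as selection markers in yeast were far higher in background. URA3, orotidine-5′-phosphate decarboxylase (YEL021W, chrV:116167-116970, plus strand), was at 1824, 1759.7 and 1901 CPM in the PrA control and 1711, 1701 and 1748 CPM in the GFP control, against 207, 216 and 231 CPM in input, a log2 fold change of 3.02 ± 0.04 (Benjamini-Hochberg adjusted p = 3.53e-26, edgeR quasi-likelihood). No background library came near the input. Of the genes on either side, GEA2 fell by 0.66 ± 0.04 and TIM9 rose by 0.23 ± 0.05. HIS3, of histidine synthesis, was at 56.5, 54.5 and 73.5 CPM in the PrA control and 82.8, 81.6 and 77.4 CPM in the GFP control, against 14.8, 15.5 and 16.1 CPM in input (2.18 ± 0.10). LEU2, of leucine synthesis, was at 592, 575 and 610.1 CPM in the PrA control and 655, 638 and 657 CPM in the GFP control, against 163, 178 and 179 CPM in input (1.84 ± 0.04). Neither gene's background libraries overlapped its input libraries. CAN1 (0.98), MET17 (0.78), TRP1 (0.74) and LYS2 (0.53) rose less, and ADE2 fell by 1.80 ± 0.03. In all, 7 of 8 marker genes rose and 1 fell (median 0.88), where 38.8% of all genes rose and 43.1% fell. In the pores URA3 ran from 284 to 712 CPM and LEU2 from 708 to 1400.2 CPM. Which of these loci the strains carry, and whether the controls, the pores and the input share them, is not given in the sources used here, so the part of genotype in these values was not tested.

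Uracil pathway genes took both directions. Of 12 genes, URA3 included, 4 rose and 7 fell, with a median of -0.13, where 38.8% of all genes rose and 43.1% fell. URA1, dihydroorotate dehydrogenase (YKL216W, chrXI:25215-26159, plus strand), was at 59.7, 56.5 and 63.2 CPM in the PrA control and 57.0, 64.2 and 57.4 CPM in the GFP control, against 302.6, 316 and 334 CPM in input (-2.41 ± 0.04). All 6 background libraries lay far below the lowest input library. URA4, dihydroorotase, fell by 1.52 ± 0.05, URA7, CTP synthase, by 1.23 ± 0.04, the uridine kinase URK1 by 0.80 ± 0.06 and URA10, an orotate phosphoribosyltransferase, by 0.59 ± 0.07. URA2, the first enzyme of the pathway (0.53 ± 0.03), URA5 (0.32) and URA6 (0.27) rose. JEN1, the neighbour before URA1, rose by 0.46 ± 0.07.

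Ppr1 activates uracil synthesis genes when pyrimidines run low. The windows of URA3 (chrV:115817-116116, plus strand) and URA1 (chrXI:24865-25164, plus strand) are shown because both hold the Ppr1 letters, CGG and CCG with any 6 bases between, in capitals, while the genes moved in opposite directions (RefSeq, R64, 350 to 51 bases before the start codon).
URA3: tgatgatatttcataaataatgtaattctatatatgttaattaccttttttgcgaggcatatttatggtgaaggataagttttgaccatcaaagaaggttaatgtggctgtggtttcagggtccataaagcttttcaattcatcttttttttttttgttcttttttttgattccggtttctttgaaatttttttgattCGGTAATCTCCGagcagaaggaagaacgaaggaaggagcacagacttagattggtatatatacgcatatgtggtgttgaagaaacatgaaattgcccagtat
URA1: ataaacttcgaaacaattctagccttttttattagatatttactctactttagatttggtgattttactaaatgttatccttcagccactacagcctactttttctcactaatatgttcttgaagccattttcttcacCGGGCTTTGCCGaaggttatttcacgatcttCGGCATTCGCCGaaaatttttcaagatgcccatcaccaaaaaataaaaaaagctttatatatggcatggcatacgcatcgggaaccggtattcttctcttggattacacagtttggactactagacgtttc
The same letters were in the window of URA4, making 3 of 12 uracil genes (25%) against 101 of all 6000 windows (1.68%). Among all genes tested, 50% of those with the letters were higher and 38.0% lower, against 38.2% and 44.8% of those without.

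**Figure D2:**
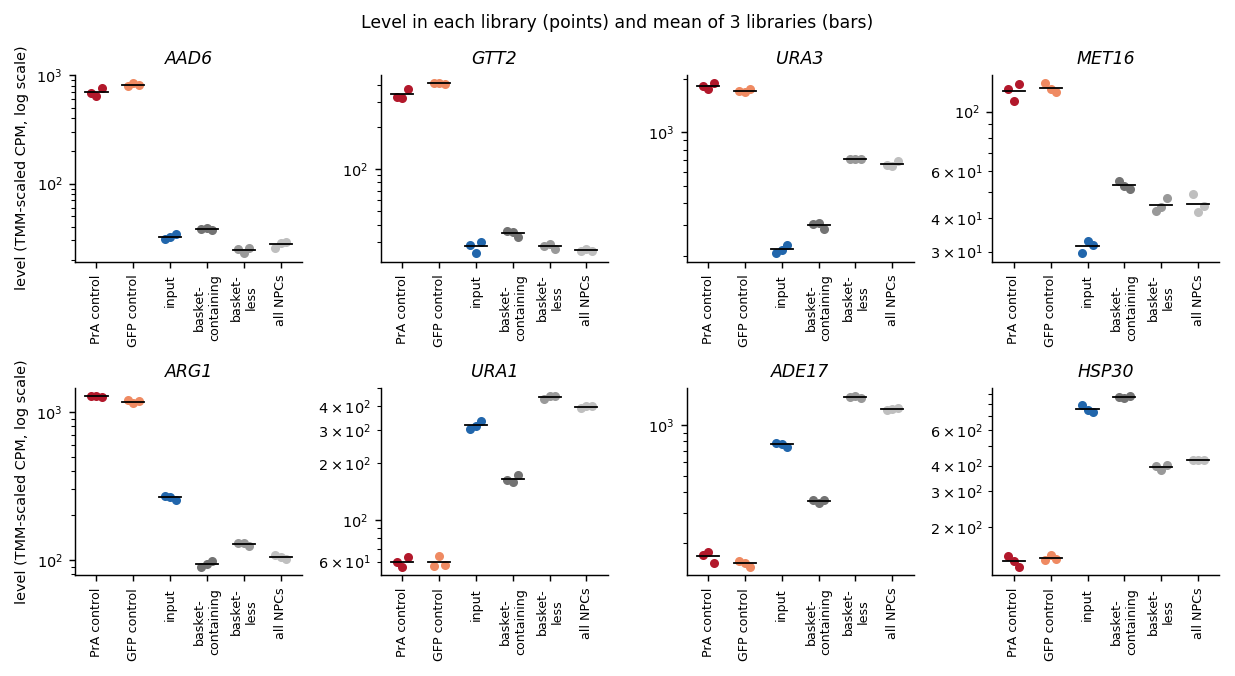
The level of 8 genes (TMM-scaled CPM, log scale) in every library, by group, with a bar at each mean of 3 libraries. AAD6, GTT2, URA3, MET16 and ARG1 are above input in all 6 background libraries, URA1, ADE17 and HSP30 are below it, and the pore groups lie between, beyond or at the input level depending on the gene.

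Sulfur assimilation and methionine genes rose together. Of 22 genes 19 rose (38.8% of all genes did) and 1 fell (43.1%), with a median of 1.11, and 18 lay above input in every background library, as did 32.5% of all genes. MET16, which reduces activated sulfate (YPR167C, chrXVI:876847-877632, minus strand), was at 121, 109.9 and 126 CPM in the PrA control and 128, 121 and 119 CPM in the GFP control, against 29.5, 32.8 and 31.7 CPM in input (1.95 ± 0.06; Benjamini-Hochberg adjusted p = 2.51e-19, edgeR quasi-likelihood). The lowest background library stood well above the highest input library. MET28, a cofactor of the Cbf1 and Met4 regulators, rose by 2.14 ± 0.11, MET1, of siroheme synthesis, by 1.93 ± 0.07 and MET2, homoserine acetyltransferase, by 1.84 ± 0.08. The sulfate permease gene SUL2 (1.69 ± 0.06), the methionine permease gene MUP1 (1.68 ± 0.05) and STR3 (1.67 ± 0.06), of homocysteine synthesis, followed. SAM2, S-adenosylmethionine synthetase, fell by 0.33 ± 0.03, and 2 genes did not pass. In the pores MET16 ran from 42.2 to 55.1 CPM, below the background and above the input.

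**Figure D3:**
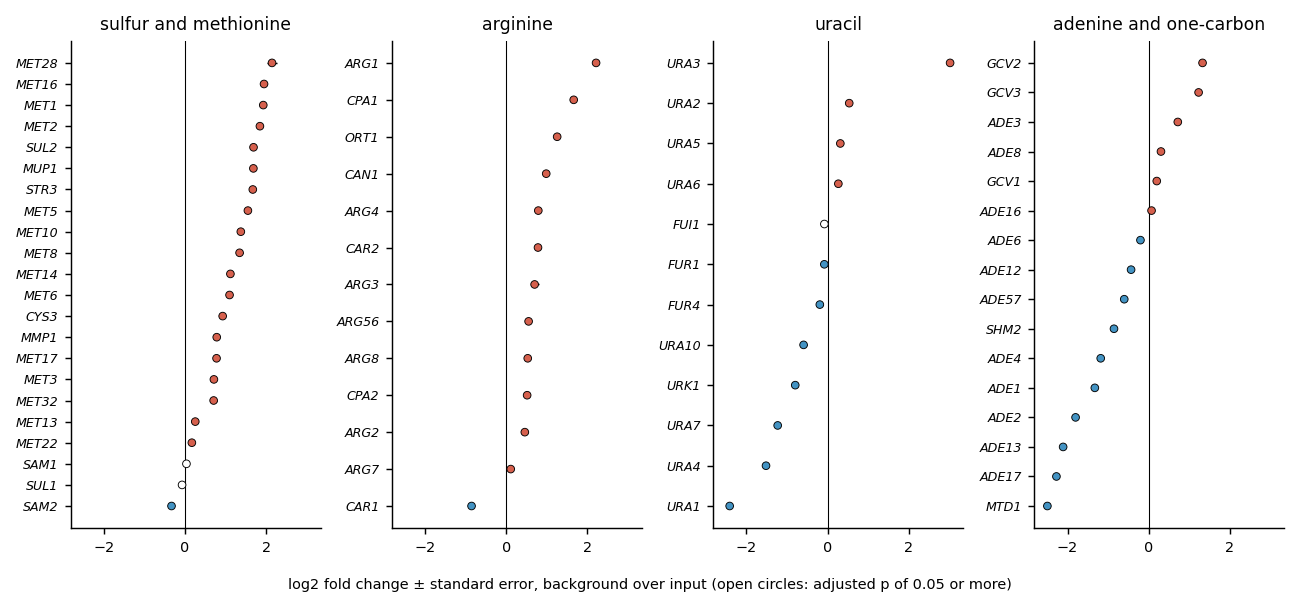
The log2 fold change of background over input, with its standard error, for every listed gene of 4 pathways; filled circles passed the test (red higher, blue lower) and open circles did not. Sulfur and arginine genes that passed lie to the right but for SAM2 and CAR1, whereas in the uracil and adenine pathways the members spread from URA3 at 3.02 and GCV2 at 1.33 down to URA1 at -2.41 and MTD1 at -2.50.

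The phosphate response, switched on by Pho4 when phosphate is short, had 12 of 19 genes higher, 4 lower and a median of 0.66, against 38.8% and 43.1% of all genes. GIT1, a permease for glycerophosphoinositol, was at 169, 154 and 171 CPM in the PrA control and 161, 169 and 161 CPM in the GFP control, against 37.5, 39.9 and 43.7 CPM in input (2.02 ± 0.05). The groups were well apart. PHM6 (2.13 ± 0.13), SPL2 (1.47 ± 0.07), a regulator of low-affinity phosphate uptake, the high-affinity transporter gene PHO84 (1.24 ± 0.04) and the acid phosphatase gene PHO5 (1.13 ± 0.04) also rose. VTC1, of polyphosphate synthesis, rose by 1.21 ± 0.06. PHO89, the sodium-coupled phosphate transporter, fell by 1.40 ± 0.06, at 8.08 to 10.7 CPM in background, against 24.2 to 27.7 CPM in input, and reached 231 to 446 CPM in the pores.

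Cbf1, of the sulfur pathway, and Pho4 both read the E-box CACGTG, which is its own reverse complement. The MET16 window (chrXVI:877683-877982, minus strand, RefSeq R64) is shown with its E-box in capitals, since 12 of 22 sulfur genes (54.5%) and 14 of 19 phosphate genes (73.7%) held it, against 242 of 6000 windows (4.03%).
MET16: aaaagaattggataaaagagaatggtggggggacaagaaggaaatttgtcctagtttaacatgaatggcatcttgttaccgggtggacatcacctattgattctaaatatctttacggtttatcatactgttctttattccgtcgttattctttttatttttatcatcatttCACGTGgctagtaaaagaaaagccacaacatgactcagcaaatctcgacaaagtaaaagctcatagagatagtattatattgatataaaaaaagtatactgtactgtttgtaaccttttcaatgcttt
The letters TGTGGC, read by Met31 and Met32, were found on either strand in 16 of 22 sulfur genes (72.7%) and 515 of 6000 windows (8.58%). Of all genes tested with an E-box 46.8% were higher in background, and of those without 38.0%.

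Arginine genes rose in 12 of 13 and fell in 1, with a median of 0.70, against 38.8% of all genes higher and 43.1% lower. ARG1, argininosuccinate synthetase (YOL058W, chrXV:219211-220473, plus strand), was at 1279, 1277 and 1272 CPM in the PrA control and 1199, 1155 and 1181 CPM in the GFP control, against 269.5, 268 and 255 CPM in input (2.21 ± 0.04; Benjamini-Hochberg adjusted p = 2.92e-25, edgeR quasi-likelihood). The groups did not overlap, and the pores lay lower still, at 90.1 to 129.9 CPM. CPA1, a subunit of carbamoyl phosphate synthetase (1.66 ± 0.06), the mitochondrial ornithine carrier gene ORT1 (1.25 ± 0.06) and the arginine permease gene CAN1 (0.98 ± 0.04) rose as well. The breakdown genes split: arginase, CAR1, fell by 0.86 ± 0.05 and ornithine transaminase, CAR2, rose by 0.78 ± 0.08.

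Amino acid synthesis genes under Gcn4, the activator of amino acid starvation, rose in 30 of 43 (38.8% of all genes) and fell in 9 (43.1%), with a median of 0.37. HIS3, LEU2 and ILV6 (1.35 ± 0.04), of branched-chain synthesis, were among the largest rises, while HOM6 (-0.79 ± 0.08), SER1 (-0.77 ± 0.04) and THR4 (-0.64 ± 0.03) fell. GCN4 itself was at 1678 to 2117 CPM in background, against 1354 to 1603 CPM in input (0.38 ± 0.04). The Gcn4 letters TGACTCA, on either strand, were in 21 of 43 windows of that list (48.8%), in 8 of 13 arginine windows (61.5%) and in 169 of 6000 windows (2.82%). Of all genes tested with them 54.5% were higher and 31.1% lower in background, and of those without 37.9% and 45.1%. CHA1, the serine and threonine deaminase of amino acid breakdown (YCL064C, chrIII:15798-16880, minus strand), went the other way. It was at 9.29, 8.47 and 8.26 CPM in the PrA control and 11.2, 9.67 and 8.37 CPM in the GFP control, against 82.3, 81.9 and 83.1 CPM in input (-3.16 ± 0.06), and the pores held 69.0 to 97.3 CPM, around the input.

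Adenine and one-carbon genes fell in 10 of 16 and rose in 6, with a median of -0.52, where 43.1% of all genes fell and 38.8% rose. ADE17, which makes inosine monophosphate (YMR120C, chrXIII:507502-509280, minus strand), was at 169, 177 and 153 CPM in the PrA control and 156, 152 and 144 CPM in the GFP control, against 788, 778 and 738 CPM in input (-2.28 ± 0.04; Benjamini-Hochberg adjusted p = 3.18e-25, edgeR quasi-likelihood). MTD1, a cytosolic methylenetetrahydrofolate dehydrogenase, was at 63.0, 66.6 and 57.8 CPM in the PrA control and 55.1, 54.6 and 57.0 CPM in the GFP control, against 327, 333 and 341 CPM in input (-2.50 ± 0.04). For both, every background library was far below every input library. ADE13, adenylosuccinate lyase (-2.11 ± 0.03), ADE2 (-1.80 ± 0.03), ADE1 (-1.33 ± 0.04), ADE4 (-1.18 ± 0.04), the first committed step, and SHM2, cytosolic serine hydroxymethyltransferase (-0.86 ± 0.03), fell too. Subunits of the mitochondrial glycine decarboxylase, GCV2 (1.33 ± 0.04) and GCV3 (1.23 ± 0.07), and ADE3 (0.72 ± 0.04), the trifunctional folate enzyme, rose. ADE12, adenylosuccinate synthase, fell by 0.44 ± 0.04, but its controls lay on opposite sides of the input, with means of 659.9 ± 7.85 CPM in the PrA control, 286 ± 9.03 CPM in the GFP control and 588 ± 22.2 CPM in input (SD, n = 3 each).

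Bas1, with Bas2, activates adenine synthesis genes. The ADE17 window (chrXIII:509331-509630, minus strand, RefSeq R64) is shown with the Bas1 letters TGACTC in capitals, since 14 of 16 windows of that list (87.5%) held them on either strand, against 487 of 6000 (8.12%).
ADE17: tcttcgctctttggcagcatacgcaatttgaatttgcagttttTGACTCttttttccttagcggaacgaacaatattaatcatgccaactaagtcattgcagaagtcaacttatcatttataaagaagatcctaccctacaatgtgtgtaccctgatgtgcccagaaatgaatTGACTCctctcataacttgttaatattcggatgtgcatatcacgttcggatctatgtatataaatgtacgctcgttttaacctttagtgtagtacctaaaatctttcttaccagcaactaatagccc
These letters lie within the Gcn4 letters, so every Gcn4 match is also a Bas1 match, and 11 of 13 arginine windows (84.6%), whose genes rose, held them as well. Among all genes tested, 44.1% of those with the Bas1 letters were higher and 38.5% lower in background.

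General stress genes, many of which Msn2 and Msn4 switch on in stress, fell in 28 of 36 (43.1% of all genes) and rose in 2 (38.8%), with a median of -0.60. HSP30, a plasma membrane stress protein (YCR021C, chrIII:156109-157107, minus strand), was at 144, 136 and 128 CPM in the PrA control and 137, 146 and 139 CPM in the GFP control, against 796, 749.9 and 737 CPM in input (-2.46 ± 0.04; Benjamini-Hochberg adjusted p = 3.53e-26, edgeR quasi-likelihood). No library of one group reached the other. DDR48 (-2.94 ± 0.12), PGM2, phosphoglucomutase (-1.85 ± 0.04), ALD3, an aldehyde dehydrogenase (-1.70 ± 0.04), GLC3, the glycogen branching enzyme (-1.43 ± 0.03), the catalase gene CTT1 (-1.41 ± 0.04) and MSC1 (-1.40 ± 0.03) fell. The small chaperone gene HSP26 (1.10 ± 0.05) and HOR7 (0.94 ± 0.07) rose. Against the pores the background was lower still: 27 of the 36 lower (45.6% of all genes), 9 higher (46.1%), median -1.78, with CTT1 at 54.0 to 64.9 CPM in background, against 429.8 to 1137 CPM in the pores.

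The stress response element AGGGG, bound by Msn2 and Msn4, was found on either strand in 31 of 36 windows of this list (86.1%) and in 1373 of 6000 (22.9%). PGM2 (chrXIII:477657-477956, minus strand, RefSeq R64) is shown as a gene with 3 matches, in capitals. The window of DDR48 held 2 matches, and that of HSP30, whose levels are given above, held none.
PGM2: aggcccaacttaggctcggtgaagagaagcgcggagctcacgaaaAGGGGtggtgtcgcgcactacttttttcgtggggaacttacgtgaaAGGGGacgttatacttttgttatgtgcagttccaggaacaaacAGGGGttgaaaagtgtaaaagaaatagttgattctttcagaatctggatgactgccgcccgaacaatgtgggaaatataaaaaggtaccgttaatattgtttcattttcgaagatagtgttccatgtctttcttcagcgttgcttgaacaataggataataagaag
Of all genes tested with the element 47.9% were lower in background, and of those without 43.7%.

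Heat shock and chaperone genes had no common direction, with 12 of 31 higher, 15 lower and a median of -0.10, near the 38.8% and 43.1% of all genes. BTN2, which sorts misfolded proteins, was at 90.3, 88.5 and 97.2 CPM in the PrA control and 103, 109 and 103 CPM in the GFP control, against 433, 433 and 453 CPM in input (-2.16 ± 0.04), with no overlap. The Hsp90 co-chaperone gene CDC37 (-1.08 ± 0.04) and the disaggregase gene HSP104 (-1.05 ± 0.04) fell, and HSP31 (1.13 ± 0.06), a methylglyoxalase, rose. RGI1, of energy metabolism, fell by 2.26 ± 0.03, along with YER066C-A (-2.33 ± 0.03) and YER067C-A (-2.13 ± 0.05), frames whose systematic names place them beside it. Whether counting used strand is not given in the sources used here, so reads of overlapping features cannot be told apart. AIM17 (-2.16 ± 0.03) and CRG1 (-2.13 ± 0.05), a methyltransferase gene, fell as well, as did YDL241W (-2.46 ± 0.10) and YOL014W (-2.39 ± 0.08). YGR265W, a frame named as next to MES1, fell by 3.28 ± 0.15.

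**Figure D4:**
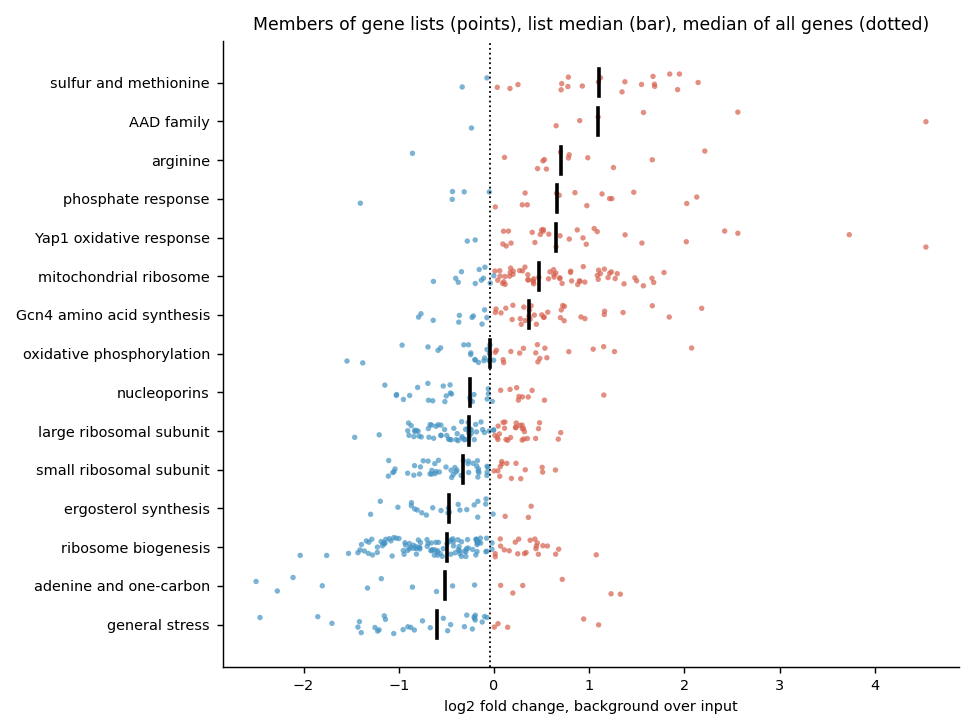
The log2 fold change of background over input for each tested member (points, red above 0 and blue below) of 15 gene lists, with the list median as a bar and the median of all genes, -0.04, as a dotted line. Sulfur genes and the AAD family sit highest, with medians of 1.11 and 1.09, and general stress and adenine genes lowest, at -0.60 and -0.52.

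Genes of the mitochondrial and the cytosolic ribosome lay on opposite sides. Mitochondrial ribosomal protein genes rose in 52 of 69 and fell in 7, with a median of 0.47, against 38.8% of all genes higher and 43.1% lower. MRPS16 was at 148, 147 and 171 CPM in the PrA control and 196, 199 and 196 CPM in the GFP control, against 53.7, 55.6 and 54.8 CPM in input (1.68 ± 0.06), with no overlap between the groups. MRPL39 (1.79 ± 0.11) and IMG1 (1.66 ± 0.06) rose as much, and MRPL25 (-0.64 ± 0.07) fell. Large-subunit cytosolic ribosomal protein genes fell in 49 of 81 and rose in 19 (median -0.27), and small-subunit ones fell in 40 of 57 and rose in 8 (median -0.32). RPL9A fell by 1.46 ± 0.04, RPL38 by 1.21 ± 0.05, ASC1 by 1.06 ± 0.03 and RPS1A and RPS1B by 1.11 each, while RPL43A rose by 0.70 ± 0.14. Many ribosomal protein genes come in near-identical pairs, so the split within a pair, RPS1A with RPS1B and RPL43A with its copy included, is uncertain. Together the small-subunit genes took 5.25 ± 0.13% of counts in the PrA control and 5.47 ± 0.04% in the GFP control, against 6.58 ± 0.10% in input (SD, n = 3 each).

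Ribosome biogenesis genes, which encode nucleolar assembly factors, fell in 97 of 123 (43.1% of all genes) and rose in 18 (38.8%), with a median of -0.50. CIC1 was at 57.2, 57.4 and 49.7 CPM in the PrA control and 48.1, 48.8 and 47.5 CPM in the GFP control, against 217, 199.8 and 216 CPM in input (-2.04 ± 0.06). The 6 background libraries stood far below the 3 input libraries. PUF6 (-1.76 ± 0.05) and UTP4 (-1.53 ± 0.04) fell, whereas RRP14 (1.07 ± 0.04) and NHP2 (0.68 ± 0.04) rose. Translation factor genes fell in 22 of 33 and rose in 7 (median -0.33), with NIP1, a subunit of initiation factor eIF3, at -1.60 ± 0.06 and FUN12, initiation factor eIF5B, at 1.22 ± 0.06. Against the pores the direction was the other one for these lists: the background was higher in 109 of 123 ribosome biogenesis genes (median 0.74), in 81 of 81 large-subunit genes (1.99) and in 57 of 57 small-subunit genes (1.92), where 46.1% of all genes were higher and 45.6% lower.

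Oxidative phosphorylation genes of the nucleus divided evenly, like all genes (38.8% higher, 43.1% lower), with 16 of 39 higher, 15 lower and a median of -0.04, which becomes 0.05 with library totals alone. QCR6, of the cytochrome bc1 complex, was at 1309, 1220.1 and 1559 CPM in the PrA control and 1622, 1754 and 1732 CPM in the GFP control, against 349, 359.5 and 377 CPM in input (2.07 ± 0.07). Its groups did not overlap. CYC1, the main cytochrome c, rose by 1.26 ± 0.06 while CYC7, its minor form, fell by 1.38 ± 0.05. COX5A (1.04 ± 0.04) rose, and ATP20 (-1.54 ± 0.07) and NDE1 (-0.97 ± 0.03) fell. Glycolysis and fermentation genes fell in 17 of 25 and rose in 2 (median -0.26; 43.1% and 38.8% of all genes), with hexokinase HXK2 at -1.05 ± 0.03 and pyruvate decarboxylase PDC1 at -0.70 ± 0.03. The 10 features with the most counts in background, 8 of them glycolytic or fermentation genes, took 8.56 ± 0.50% of counts in the PrA control and 9.57 ± 0.18% in the GFP control, against 9.98 ± 0.28% in input. Aldolase, FBA1 (0.02 ± 0.04), and enolase, ENO2 (-0.10 ± 0.07), did not pass the test, and TDH3, glyceraldehyde-3-phosphate dehydrogenase, rose by 0.13 ± 0.05, a call that is lost without replicate 1 of input (adjusted p = 0.161).

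Ergosterol synthesis genes fell in 22 of 26 (43.1% of all genes) and rose in 3 (38.8%; median -0.47), led by ERG28 (-1.30 ± 0.06), squalene synthase ERG9 (-1.20 ± 0.03) and squalene epoxidase ERG1 (-1.01 ± 0.03). Nucleoporin genes fell in 19 of 33 and rose in 9 (median -0.25), against 43.1% and 38.8% of all genes. MLP1, the main filament protein of the nuclear basket, was at 286, 297 and 277 CPM in the PrA control and 252, 259 and 259.9 CPM in the GFP control, against 123, 120.0 and 123 CPM in input (1.15 ± 0.03), and at 512 to 5551 CPM in the pores. NUP84 (-1.15 ± 0.06), NIC96 (-1.03 ± 0.05) and NUP82 (-1.02 ± 0.06) fell. The iron regulon had 7 of 25 higher and 11 lower (median -0.07), with ISU2, a scaffold for iron-sulfur clusters (2.14 ± 0.07), and the siderophore transporter gene SIT1 (-1.88 ± 0.07) at its ends. Hexose transporter genes, listed with the sensor and regulator genes RGT2, SNF3, STD1 and MTH1, rose in 8 of 18 and fell in 5 (median 0.18). HXT2 lay at -1.57 ± 0.04. Histone genes rose in 3 of 11 and fell in 6 (median -0.27), HTB1 lying at -1.16 ± 0.03. Of all genes 38.8% were higher and 43.1% lower. Beside these shares the iron list had fewer rises and the hexose list fewer falls.

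MIG2, a glucose-responsive repressor of transcription, rose by 2.46 ± 0.06, and YCH1, a rhodanese-like phosphatase, by 2.66 ± 0.08. MIG2 was at 124, 119 and 112 CPM in the PrA control and 107, 116 and 119 CPM in the GFP control, against 21.5, 21.3 and 20.3 CPM in input. Frames with no match in the reference annotation were also among the 15 largest rises. YNL276C (2.98 ± 0.15), YOL150C (2.68 ± 0.12) and YOR225W (2.67 ± 0.13) carry systematic names next to those of MET2, GRE2 and ISU2, all of which rose. YKR040C (2.66 ± 0.32), YDL025W-A (2.59 ± 0.13) and YLR140W (2.94 ± 0.48) were the others, the last uneven between libraries. Its log2 fold change was 3.64 without replicate 1 and 2.39 without replicate 3 of input.

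The cells were checked against mating-type markers. The a-cell receptor gene STE2 was at 222, 220.4 and 169 CPM in the PrA control and 168, 143 and 162 CPM in the GFP control, against 423, 394 and 375 CPM in input (-1.15 ± 0.08), below it in every background library. Of the other a-cell markers, MFA2 (0.38 ± 0.07) and AGA2 (0.32 ± 0.06) rose. STE6 (-0.85 ± 0.06) and BAR1 (-0.21 ± 0.04) fell, and MFA1 (0.07 ± 0.10) and ASG7 (-0.13 ± 0.10) did not pass. STE14 (-0.51 ± 0.08), on the same list though not specific to a cells, fell as well. The alpha-cell receptor gene STE3 stood at 1.19 to 2.10 CPM in background, against 4.75 to 5.0 CPM in input, and the alpha-factor gene MF(ALPHA)1 at 0.216 to 0.918 CPM, against 0.825 to 1.09 CPM, which did not pass the test. MF(ALPHA)2 rose by 1.76 ± 0.14, to 12.2 to 16.6 CPM in background, against 4.09 to 4.65 CPM in input. The other alpha-cell markers tested were higher in level and did not pass. SAG1 was at 23.5 to 34.9 CPM in background, against 27.7 to 30.8 CPM in input (-0.11 ± 0.09). AFB1 was at 23.8 to 41.5 CPM in background, against 22.8 to 33.8 CPM in input (0.16 ± 0.10). In all, a-cell markers, STE14 included, had 2 of 8 higher and 4 lower (median -0.17), and alpha-cell markers 1 of 5 tested higher and 1 lower (median -0.11). Their summed share of counts was 0.0590 to 0.0773% in background and 0.0881 to 0.0997% in input for a-cell markers, and 0.00677 to 0.00993% in background and 0.00591 to 0.00747% in input for alpha-cell markers. Sporulation genes fell in 9 of 14 and rose in 3 (median -0.58; 43.1% and 38.8% of all genes), led by their master regulator gene IME1 (-2.00 ± 0.14), at 2.03 to 4.63 CPM in background and 13.0 to 16.1 CPM in input. In bulk libraries such as these, fewer cells of a type, less RNA per cell and lower recovery in the purification cannot be told apart.

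The other lists had members in both directions, beside 38.8% of all genes higher and 43.1% lower. Cyclin and cell cycle genes rose in 12 of 22 and fell in 7 (median 0.22); the G1 cyclin gene PCL1 (1.48 ± 0.06) and the replication clamp gene POL30 (-0.97 ± 0.05) were at the ends. Messenger RNA decay genes rose in 10 of 30 and fell in 17 (-0.22), with LSM2 (-2.06 ± 0.09) and LSM3 (1.17 ± 0.06), subunits of the same ring, on opposite sides. Messenger RNA export genes rose in 7 of 27 and fell in 13 (-0.07), with the cap-binding subunit gene STO1 at -1.38 ± 0.06 and the helicase gene DBP5 at -1.27 ± 0.04. Proteasome genes rose in 14 of 34 and fell in 18 (-0.14), with RPN3 at -1.31 ± 0.04. Cell wall genes rose in 14 of 38 and fell in 17 (-0.06), unfolded protein response genes rose in 10 of 26 and fell in 13 (-0.11), and glucose-repressed genes rose in 12 of 27 and fell in 14 (-0.18). Multidrug genes rose in 7 of 18 and fell in 7 (0.06), metal handling genes rose in 4 of 12 and fell in 5 (-0.01), and haploid and pheromone genes rose in 5 of 16 and fell in 10 (-0.39). Genes of the mitochondrial genome rose in 5 of 13 and fell in 1 (0.69). In the PrA control alone 3 rose and 2 fell, and in the GFP control alone 7 rose and 1 fell. The medians of the cell wall, iron, metal handling and export lists turn positive with library totals alone, at 0.03, 0.02, 0.08 and 0.03.

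By class of transcript, small nuclear and nucleolar RNAs, most of which carry no poly(A) tail when mature, rose in 31 of 69 tested (38.8% of all genes) and fell in 9 (43.1%; median 0.39). snR17a, a copy of the U3 RNA that guides early cuts of the ribosomal precursor, was at 92.6, 81.0 and 107 CPM in the PrA control and 44.3, 45.3 and 42.1 CPM in the GFP control, against 9.5, 9.91 and 11.9 CPM in input (2.61 ± 0.10). Both controls were above the input and the PrA control was the higher. RDN5-1, a 5S ribosomal RNA gene, was at 6.16, 8.11 and 46.9 CPM in the PrA control and 188, 183 and 55.0 CPM in the GFP control, against 2.19, 1.36 and 4.80 CPM in input. Its log2 fold change was 4.18 ± 0.84, but 3.47 without replicate 3 of the PrA control and 4.84 without replicate 3 of input. The 5S genes are near-identical copies, so reads cannot be assigned to 1 of them.

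Coding length had a weak relation with the fold change: across 5768 genes, which are not independent, Spearman's rho was -0.13. Median log2 fold changes were 0.22 below 300 bases, 0.23 from 300 to 600, -0.18 from 2000 to 3000 and 0.10 at 5000 and more. Chromosome medians ran from -0.14 on chromosomes VII and XIII to 0.19 on chromosome I. Of 5645 windows of 9 neighbouring genes, 12 had a median past 1 in size. The highest, 1.32, was shared by windows on chromosome IX between positions 377287 and 399236, around MET28, and the lowest, -1.07, by windows on chromosome XV between 234940 and 254617.

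The 2 matrices differed from each other in fewer genes than either did from input. The PrA control was higher than the GFP control in 1038 genes (16.1%) and lower in 1075 (16.7%), but by more than 2-fold in 45 (0.7%) and 15 (0.233%). Of the genes called, 49.1% were higher in the PrA control, against 69.5% (1564 higher, 686 lower) with library totals alone. Leaving out replicate 3 of the PrA control raised the counts to 1431 and 1480, and leaving out replicate 1 lowered them to 603 and 628.

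The genes described were also called over input, reached 20 CPM in the higher control and did not overlap between the controls; outside these limits the differences ran from -5.41 to 3.38. SNF1, the kinase that lifts glucose repression (YDR477W, chrIV:1412373-1414274, plus strand), was the furthest above the GFP control within them. It was at 877, 899.8 and 807 CPM in the PrA control, against 132, 135 and 133 CPM in the GFP control, with input at 152, 156 and 148 CPM (PrA over GFP 2.69 ± 0.04; Benjamini-Hochberg adjusted p = 1.59e-24, edgeR quasi-likelihood). The PrA control stood far above the input and the GFP control just below it. PFA4, a palmitoyltransferase gene, was at 210.2, 209.7 and 212 CPM in the PrA control, against 35.9, 29.1 and 34.0 CPM in the GFP control and 36.2, 35.3 and 36.7 CPM in input (2.68 ± 0.06). RPD3, a histone deacetylase gene, was at 767, 773 and 958 CPM in the PrA control, against 148, 154 and 157 CPM in the GFP control and 105, 115 and 122 CPM in input (2.44 ± 0.07). For both genes the 3 PrA libraries were several-fold above all the others. BSD2, of metal transporter sorting, had means of 256 ± 13.6 CPM in the PrA control, 48.6 ± 1.33 CPM in the GFP control and 87.8 ± 3.91 CPM in input (SD, n = 3 each), a difference between the controls of 2.40 ± 0.05. OAF1, a regulator of fatty acid use (1.76 ± 0.05), the RNA-binding protein gene SRO9 (1.73 ± 0.10), KCS1, an inositol phosphate kinase (1.72 ± 0.04), and NMA1, of NAD synthesis (1.70 ± 0.05), completed the 8 highest within these limits. Over input, SNF1, BSD2, OAF1 and SKN1 were higher in the PrA control (2.51, 1.54, 1.23 and 0.22) and lower in the GFP control (-0.19, -0.86, -0.52 and -0.36), each value past the test. Which genes the control strains carry as tags or deletions is not given, so the part of genotype was not tested.

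**Figure D5:**
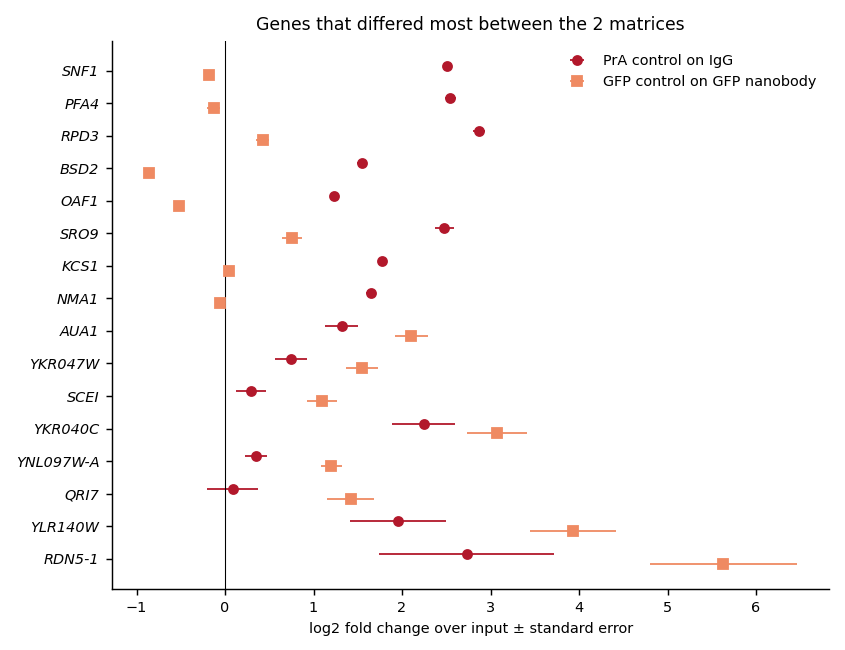
The log2 fold change over input, with its standard error, in the PrA control (IgG, circles) and the GFP control (nanobody, squares) for the 8 genes highest and the 8 lowest in the PrA control relative to the GFP control among those called over input as well, with 20 CPM in the higher control and no overlap between the controls. SNF1, PFA4, KCS1 and NMA1 lie at -0.19 to 0.05 in the GFP control and at 1.64 to 2.55 in the PrA control, while RDN5-1 and YLR140W have wide errors.

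Within the same limits, genes lower in the PrA control than in the GFP control differed less or were uneven. The furthest below were RDN5-1 (-2.90 ± 0.62), YLR140W (-1.98 ± 0.39) and QRI7 (-1.33 ± 0.26), a mitochondrial tRNA modification gene, at 21.5, 16.0 and 22.4 CPM in the PrA control, against 70.2, 53.8 and 26.2 CPM in the GFP control. In QRI7 replicate 3 of the GFP control lay close to the PrA libraries. AUA1 (-0.79 ± 0.17), YKR047W, YKR040C, YNL097W-A and the mitochondrial intron gene SCEI (-0.80 ± 0.16) completed the 8 within these limits. By list, large-subunit ribosomal protein genes were lower in the PrA control in 45 of 81 and higher in 6 (median -0.18), small-subunit ones lower in 25 of 57 and higher in 7 (median -0.11), and glycolysis genes lower in 16 of 25 and higher in none, where 16.7% of all genes were lower and 16.1% higher. Of the genes that led the rises over input, AAD6 (-0.22 ± 0.05) and GTT2 (-0.27 ± 0.05) were somewhat lower in the PrA control, and URA3 (0.09 ± 0.04), OYE3 (0.03 ± 0.04) and MET16 (-0.04 ± 0.06) did not pass. URA1 (0.00 ± 0.05), HSP30 (-0.05 ± 0.04) and CHA1 (-0.16 ± 0.11) did not pass either.

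Against the purified pores, which share none of these 9 libraries, 2963 of 6429 genes (46.1%) were higher in background and 2930 (45.6%) lower. With upper-quartile scaling 61.0% of the genes called were higher, against 50.3% with TMM, and the median of all genes moved to 0.33, against 0.02. Set beside the comparison with input, genes took several arrangements, of which examples follow. AAD6 (4.57), GTT2 (3.60) and CHA1 (-3.17) had nearly the same log2 fold change over the pores as over input. ARG1 (3.56), OYE3 (3.75), GRE2 (3.70), CYC1 (3.64) and ARG3 (3.86) were further above the pores than above input, where ARG3, ornithine carbamoyltransferase, stood at 0.70 ± 0.10. LEU2 (-0.69), MLP1 (-2.80), STR3 (-1.25) and URA2 (-1.51) were above input and below the pores. URA3 (1.97) and GIT1 (0.87) were above both, but less far above the pores than above input. STE2 (0.43) and URA7 (1.12) were below input and above the pores. PHO89 (-5.09), GLC3 (-3.87) and AIM17 (-3.46) were far lower than the pores, which held 231 to 446 CPM of PHO89, 2548 to 5691 CPM of GLC3 and 754 to 2466 CPM of AIM17. The values over input and over the pores share the background libraries, so each stands as its own comparison.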

How the data were processed

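Poly(A) RNA was sequenced from 18 libraries, of which the 6 background and 3 input libraries are described here. The deposited values are raw counts per feature in 1 file per library. Per the submitters' processing notes reads were aligned with STAR to build R64, counted with featureCounts and tested with DESeq2. Neither versions, nor strandedness, nor how multi-mapping reads were treated is given in the sources used here. Reads shared between near-identical genes, or between overlapping ones, could therefore move counts between them.

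The counts were fitted with edgeR 4.0.16 (R 4.3.3) by quasi-likelihood over all 18 libraries as 6 group means, which leaves 12 residual degrees of freedom, with TMM factors and robust dispersions. A filter on low counts (filterByExpr) kept 6429 of 7127 features. The contrast was the PrA control and the GFP control at a weight of 0.5 each, minus input. Other contrasts were each control over input, the PrA control over the GFP control, and background over pores with IgG and nanobody libraries weighing alike. Standard errors are the log2 fold change over the root of F, tests are two-sided, and adjustment (Benjamini-Hochberg) was over all features tested, with calls below 0.05. Coordinates and sequences come from the RefSeq R64 assembly, in which 6047 features were matched, read with Biopython 1.88; windows run from 350 to 51 bases before the start codon, searched on both strands.

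Genes were named by rule: the 15 largest rises and 15 largest falls among genes called, with at least 20 CPM on the higher side and no overlap between libraries; up to 5 members a list by adjusted p, with members of the pathways described; 8 each way for the PrA control over the GFP control, called there and over input, with the same CPM minimum and no overlap between the controls; neighbours; and the 10 most abundant. Genes named outside it, such as MF(ALPHA)2, were chosen after their values were seen. The members and the 37 lists were chosen with earlier results of these data known, so no list's direction is independent evidence, and lists carry no test. Totals of 11171677 to 16620246 counts back the 9 libraries. Between replicates of these groups the chi-square per degree of freedom was 2.84 to 20.4, against about 1 under counting error alone. It is taken over all genes together, so the part of counting error in single genes was not tested. Counts without molecular identifiers are not independent molecules. Other normalizations, filters, feature sets, DESeq2 1.42.0, a fold threshold, a replicate block and leaving out each library were tried.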

Additional observations from a re-analysis of the deposited data

Results flagged for a closer look

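Of all genes the control purifications differed in their effect over input in 1038 with the PrA control higher and 1075 with it lower, by the test of that difference itself (PrA control over GFP control, edgeR quasi-likelihood, Benjamini-Hochberg adjusted p below 0.05). Among the genes named here 13 of these differed by more than 2-fold. On the log2 scale the PrA control was higher for SNF1 by 2.69, PFA4 by 2.68, RPD3 by 2.44, BSD2 by 2.40, OAF1 by 1.76, SRO9 by 1.73, KCS1 by 1.72, NMA1 by 1.70, ADE12 by 1.20 and snR17a by 1.09, and all 3 PrA libraries lay above all 3 GFP libraries in each. It was lower for QRI7 (-1.33), YLR140W (-1.98) and RDN5-1 (-2.90), whose libraries were uneven. The call for RDN5-1 is lost in a fit of the 9 libraries alone (adjusted p = 0.061). Groups of 3 are too small for a test of single libraries.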

How the results depend on the processing

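Counts of genes higher and lower kept within 1.5 times of those reported under other normalizations, filters and feature sets, DESeq2 and the replicate block, with exceptions. Against a log2 fold change of 1, the counts were 350 higher and 344 lower for background over input, 297 and about 3.0e+02 for the PrA control over input, 359 and 327 for the GFP control over input, 21 and 1 for the PrA control over the GFP control, and 1117 and 1216 for background over pores; a fold threshold calls fewer genes by construction. For the PrA control over the GFP control, library totals alone gave 1564 and 686, and a fit of the 9 libraries 672 and 594; the cause was not tested. Leaving out 1 library gave 2390 to 2522 higher and 2669 to 2803 lower for background over input, 2313 to 2430 and 2547 to 2656 for the PrA control over input, 2322 to 2459 and 2637 to 2777 for the GFP control over input, 2925 to 2979 and 2908 to 2940 for background over pores, and 603 to 1431 and 621 to 1480 for the PrA control over the GFP control. In that last comparison the low counts come without replicate 1 (603 and 628) or 2 (638 and 621) of the PrA control or replicate 2 of the GFP control (678 and 712). Same-numbered libraries of different groups correlated at -0.28 to 0.48 and differently numbered ones at -0.46 to 0.41. These ranges overlap, so whether the number marks a pairing was not settled. With the number as a replicate block, background over input had 2502 higher and 2774 lower. DESeq2 gave 2504 and 2724. FBA1, which did not pass, ranged from -0.019 to 0.070 with 1 library left out and turned negative without replicate 3 of the PrA control (-0.008) or replicate 1 of input. YKR040C lost its call for the PrA control over the GFP control without replicate 2 of the PrA control or replicate 1 or 2 of the GFP control (adjusted p = 0.0673 to 0.123). Low counts limit MF(ALPHA)1, STE3 and AAD15, at a few CPM.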
